A study of Mus musculus with 96 samples.

Results

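GABAergic and glutamatergic neurons of the mouse preoptic area were set against each other across all genes measured in single cells. A cell was called GABAergic where Gad1 or Gad2, which encode the enzymes that make GABA, was at 10 counts per 1000000 (CPM) or more and Slc17a6, which encodes a vesicular glutamate transporter, was below 10 CPM. A cell was called glutamatergic where Slc17a6 was at 10 CPM or more and both Gad1 and Gad2 were below 10 CPM. Of 96 cells, 47 were GABAergic and 16 were glutamatergic, so that 63 of 96 entered the comparison. A further 19 cells had both kinds of marker and 14 had neither, and these are described apart. Each cell came from a C57BL/6N mouse aged 2 to 3 months. It was recorded by whole-cell patch clamp in a brain slice and then picked with a glass pipette for Smart-seq2, a full-length single-cell method with no molecular identifiers. The labels give no genotype or drug, and the protocols make no distinction between cells. By response to temperature the labels give 21 cells as warm-sensitive, 5 as cold-sensitive and 24 as insensitive, while 10 silent cells are labelled sensitive and 18 silent cells insensitive, and 18 cells are left as unknown. Since the labels tie no cell to an animal, cells are not replicates, each class is treated as 1 sample and all comparisons are descriptions without a test.

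GABA is the main inhibitory transmitter of the brain and glutamate the main excitatory one. A GABAergic neuron makes GABA with glutamate decarboxylase and loads it into vesicles with the transporter encoded by Slc32a1, whereas a hypothalamic glutamatergic neuron loads glutamate mostly with the transporter encoded by Slc17a6. Both kinds lie intermingled in the preoptic area, and both have been tied to the control of body temperature, sleep and reproduction. Their fates are set in development by different transcription factors, among them the Dlx family in forebrain GABAergic lineages.

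Total counts had a median of 1.43e+06 in GABAergic cells, with a lowest value of 465167, and of 1.21e+06 in glutamatergic cells, with a lowest value of 815414. Rn45s, the precursor of ribosomal RNA, took a median of 56.8% of the counts in GABAergic and 44.8% in glutamatergic cells, against 45.8% in cells with both markers and 65.3% in cells with neither. GABAergic cells had a median of 3576 detected genes and glutamatergic cells of 3649.5. After thinning of each cell to 100000 counts these medians were 2332 and 2421, against 3072 in cells with both markers and 1585 in cells with neither. The labelled cell type was checked against 15 pan-neuronal genes, of which GABAergic cells had a median of 11 at 10 CPM or more (range 3 to 15) and glutamatergic cells a median of 12 (range 5 to 14). A pair of sets of cells stood apart. Microglia markers were present in many cells, and 6 glutamatergic cells with Nr5a1 were of higher library quality than the other 10. Results are therefore also given without these cells.

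The values that chose the cells are given as a description. In GABAergic cells Gad1 had a median of 218 CPM (range 0.707 to 2598) and Gad2 a median of 224 CPM (range 0 to 3165), while Slc17a6 had a median of 0 and a highest value of 6.22 CPM. In glutamatergic cells Slc17a6 had a median of 381 CPM (range 12.6 to 1043), while Gad1 reached at most 8.40 CPM and Gad2 at most 6.18 CPM. Both Gad genes were at 10 CPM or more in 32 of 47 GABAergic cells, Gad1 alone in 10 and Gad2 alone in 5. The lowest values that passed the threshold were 10.5 CPM for Gad1, 11.7 CPM for Gad2 and 12.6 CPM for Slc17a6, and the highest that missed it were 9.23, 8.36 and 7.97 CPM in that order. In cells with both kinds of marker Slc17a6 had a median of 126 CPM (range 31.9 to 410.0), Gad1 of 54.2 CPM (range 0 to 560.5) and Gad2 of 179.9 CPM (range 0.701 to 818). At a threshold of 5 CPM the classes held 50 GABAergic and 14 glutamatergic cells, and at 50 CPM they held 46 and 15.

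**Figure D1:**
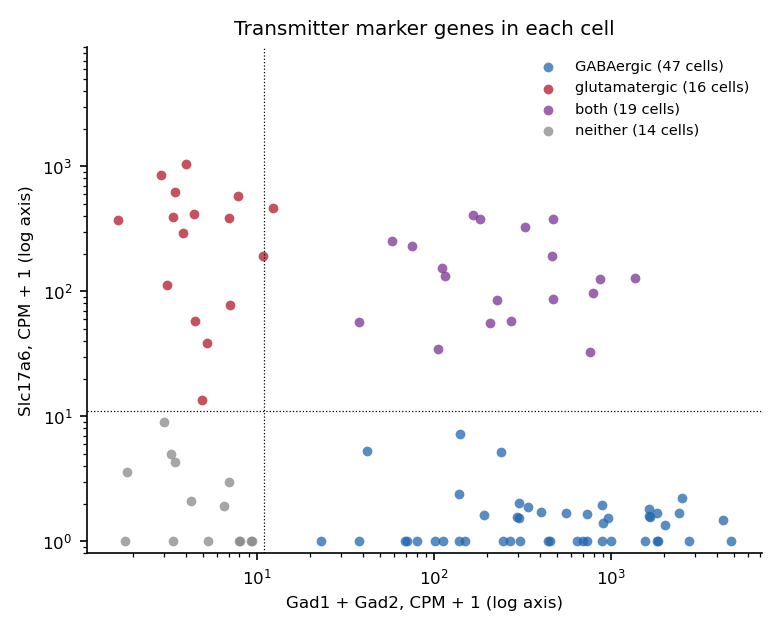
Each point is 1 cell. The horizontal axis gives the sum of Gad1 and Gad2 and the vertical axis Slc17a6, both as CPM + 1 on log axes, and dotted lines mark 10 CPM. The threshold applies to Gad1 and Gad2 singly, so a glutamatergic cell with a sum of 11.3 CPM lies just past the vertical line. The 47 GABAergic cells lie at the bottom right and the 16 glutamatergic cells at the top left.

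A difference is the mean over cells of log2(CPM + 1) in GABAergic minus that in glutamatergic cells, which makes differences of weakly expressed genes look smaller. Genes entered the comparison, and are called eligible, where 25% of the cells of a class, and no fewer than 3, had 10 CPM or more, and a gene is said to be found in a cell that has 10 CPM or more of it. Of 4495 eligible genes 23 (0.512%) were higher in GABAergic cells past a difference of 2 and 158 (3.52%) were lower, or 4.03% in either direction. Of all eligible genes 1329 lay above 0 and 3166 below, and the median gene differed by -0.51. Most eligible genes were thus at a lower level in GABAergic cells. This did not hold with no limit on low genes, where 50.6% of 15345 genes lay above 0 and the median gene differed by 0.0087. Set against the median gene, 91 genes were higher and 50 lower. Of the eligible genes 384 passed through GABAergic cells only and 1440 through glutamatergic cells only, and such a gene had to be more widely found in the class that let it in. With 16 glutamatergic cells, 4 cells were enough to let a gene in on that side. The balance depended on the scaling and on single sets of cells. With TMM library sizes 34 of 4319 eligible genes were higher and 102 lower, and with DESeq2 size factors 14 and 31 of 2395. With totals that leave out Rn45s 71 of 4882 were higher and 190 lower. Leaving out insensitive cell 1, or insensitive cell 12, both glutamatergic with Nr5a1, gave 38 higher genes. Without all 6 glutamatergic cells with Nr5a1 198 of 3529 eligible genes were higher and 86 lower, and the median gene differed by 0.32.

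Among genes of GABA handling that the rule did not use, Slc32a1, the vesicular GABA transporter, was found in GABAergic cells and in no glutamatergic cell. Slc32a1 ranged from 0 to 243 CPM with a median of 0.575 in GABAergic cells and from 0 to 1.21 CPM with a median of 0 in glutamatergic cells. Levels of 10 CPM or more were found in 10 of 47 GABAergic cells, or 21.3% (exact 95% interval 10.7 to 35.7%), and in 0 of 16 glutamatergic cells, which allows a share of up to 20.6%. Summed over cells Slc32a1 was 25.9 CPM (24.8 to 27.2) in GABAergic and 0.185 CPM (0.0601 to 0.432) in glutamatergic cells. All intervals are for counting error alone: cells of a share may come from the same animal, and reads of a sum may be copies of 1 molecule. Most cells chosen by the enzymes had the transporter below 10 CPM. Slc32a1 shares exon bases with Gm14205, and the sources used here do not say whether strand was used in counting. The same doubt holds for Aldh5a1, Bdnf, Cx3cr1, Dlx1, Dusp1, Gabra5, Glul, Itgam, Nmb, Nrxn3, Pcp4, Penk, Pmch, Six3 and Syp, whose exons overlap those of other genes.

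Slc6a11 and Slc6a13, transporters found mostly in glia and meninges, were at 10 CPM or more in 7 and 3 GABAergic cells and in 2 and 0 glutamatergic cells. Abat, which breaks GABA down, had a median of 7.59 CPM in GABAergic and 70.3 CPM in glutamatergic cells, reached 10 CPM in 23 of 47 GABAergic and 10 of 16 glutamatergic cells and differed by -1.35. Aldh5a1, the next enzyme of that path, was found in 7 and 2. Slc17a7 and Slc17a8, the other vesicular glutamate transporters, reached 10 CPM in 0 of 96 cells. Glud1, glutamate dehydrogenase, was found in 16 of 47 GABAergic and 9 of 16 glutamatergic cells. Glud1 at -1.82, Glul, the glutamine synthetase of astrocytes, at -1.32 and Slc38a1, a glutamine transporter, at -1.29 were the lowest of the list, and Got1, an aspartate aminotransferase, at 0.48 the highest. Without glutamatergic cells with Nr5a1, Abat was at -0.75, Slc38a1 at 0.04 and Glul at -0.79, and without cells with 3 or more microglia markers Got1 was at -0.11. In all, 9 of 14 genes of glutamate transport and metabolism were eligible for comparison, 2 higher and 7 lower in GABAergic cells. Their median difference was -0.62 and none was past 2 in size. This was close to all eligible genes, of which 3166 of 4495 were lower, with a median of -0.51.

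The 15 genes named as higher differed by 2.23 to 3.38. Rasgrf1, a calcium-responsive exchange factor for Ras (chromosome 9, 89909908 to 90026977), ranged from 0.774 to 2189.6 CPM with a median of 183 in GABAergic cells and from 0 to 398 CPM with a median of 2.14 in glutamatergic cells. It was at 10 CPM or more in 39 of 47 GABAergic cells and 5 of 16 glutamatergic cells, with a difference of 3.26. It was the most widely found of the named higher genes in GABAergic cells. Glrb, the glycine receptor subunit that anchors the receptor to gephyrin, ranged from 0 to 787 CPM with a median of 77.6 in GABAergic and from 0 to 814 CPM with a median of 0.938 in glutamatergic cells. It was found in 33 of 47 and 6 of 16 cells and differed by 2.74. Lrrc4c, a synaptic adhesion protein that binds netrin-G1, was found in 19 of 47 and 1 of 16 cells and differed by 2.25. Levels of all these genes overlapped between the classes.

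Among the other named higher genes, Rgs10, a regulator of G protein signalling, had a difference of 3.38, the largest of all eligible genes. Rgs10 had a median of 143 CPM in GABAergic and 0.916 CPM in glutamatergic cells and was at 10 CPM or more in 32 of 47 and 4 of 16 cells. Atf4, a transcription factor of the stress response, differed by 2.60, Tmx2, a thioredoxin-like membrane protein, by 2.59 and Sdhd, a subunit of succinate dehydrogenase, by 2.41. Dnajc27, a small GTPase with a J domain, differed by 2.32 and Mfn2, which fuses mitochondria, by 2.24. Capzb, an actin capping subunit, was found in 31 of 47 and 5 of 16 cells and differed by 2.23. Tmx2 shares exon bases with Gm28635 and Med19. Lgmn, a lysosomal protease, differed by 2.96. C1qc and C1qb, subunits of complement C1q, differed by 2.60 and 2.55, Siglech by 2.50 and Laptm5 by 2.48. C1qc, C1qb, Siglech and Laptm5 are known as genes of microglia, the immune cells of the brain, and Rgs10 and Lgmn are abundant there too.

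Microglia markers moved with this comparison. Of 10 such markers, GABAergic cells had a median of 3 at 10 CPM or more and glutamatergic cells a median of 2. Cells with 3 or more of them made up 25 of 47 GABAergic cells (53.2%, interval 38.1 to 67.9%) and 5 of 16 glutamatergic cells (31.3%, 11.02 to 58.7%), and 6 of 19 with both transmitter markers and 9 of 14 with neither. The summed level of the 10 markers ranged from 1.90 to 11686 CPM with a median of 664 in GABAergic cells and from 2.00 to 1821 CPM with a median of 279 in glutamatergic cells. Of the defining markers, Cx3cr1, Tmem119 and Itgam reached 10 CPM in 12, 4 and 5 GABAergic cells and in 0 glutamatergic cells. The list had 7 eligible members, of which 6 were higher, with a median difference of 1.72. Of all 4495 eligible genes 1329 were higher. After leaving out the marked cells, 22 GABAergic and 11 glutamatergic cells remained. The median over the same 7 members was then -0.34, against -0.73 over the same 4495 genes. These markers had chosen the cells left out, so their own fall was built into that choice. In the remaining cells C1qb differed by 0.33, Siglech by 0.14, Laptm5 by 0.29, C1qc by 1.23, Lgmn by 1.48, Capzb by 1.46 and Rgs10 by 1.80. Rasgrf1 differed by 4.05, Glrb by 3.51, Tmx2 by 2.38, Atf4 by 2.26 and Mfn2 by 2.04. So 5 of the 15 named higher genes stayed past 2 there, as did 15 of the 15 named lower genes. The median gene moved down there too, from -0.51 to -0.83, with 49 of 4439 eligible genes higher and 507 lower past 2. With all cells 23 of 4495 were higher and 158 lower. The part of microglia markers in the other differences was not tested.

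**Figure D2:**
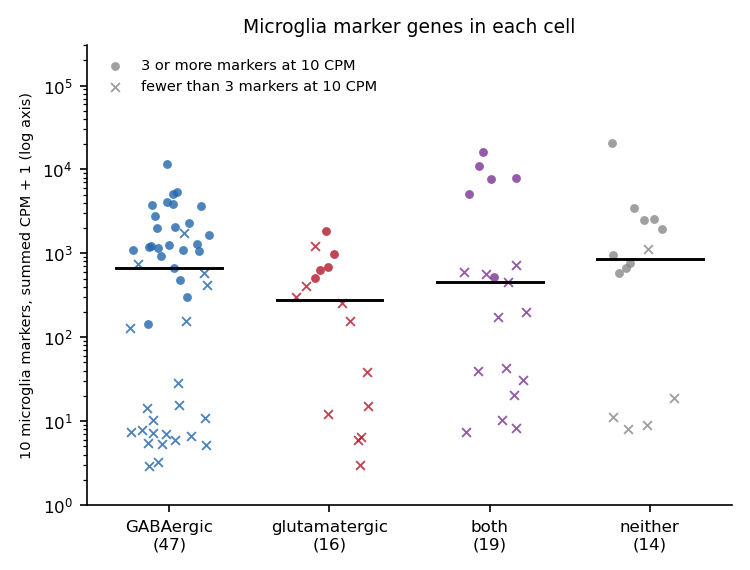
Each point is 1 cell, placed by transmitter class, and the vertical axis gives the summed level of 10 microglia markers as CPM + 1 on a log axis. Circles are cells with 3 or more of the markers at 10 CPM, crosses are cells with fewer, and black lines are medians, at 664 CPM in GABAergic and 279 CPM in glutamatergic cells.

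The 15 genes named as lower in GABAergic cells differed by -4.12 to -2.99 and were found in 7 to 15 of the 16 glutamatergic cells. Single values overlapped between the classes for all 15. Ppp3ca, the catalytic subunit of the calcium-activated phosphatase calcineurin (chromosome 3, 136670124 to 136937727), ranged from 0 to 342 CPM with a median of 3.46 in GABAergic cells and from 0.788 to 868 CPM with a median of 334 in glutamatergic cells. The gene reached 10 CPM in 17 of 47 GABAergic cells, or 36.2% (22.7 to 51.5%), and in 15 of 16 glutamatergic cells, or 93.8% (69.8 to 99.8%). Calb1, the calcium buffer calbindin, ranged from 0 to 1399 CPM with a median of 2.80 in GABAergic and from 0 to 2110.3 CPM with a median of 376 in glutamatergic cells. It was found in 22 of 47 and 12 of 16 cells and differed by -3.03. Cacna2d1, an auxiliary subunit of voltage-gated calcium channels, was found in 12 of 47 and 10 of 16 cells and differed by -3.30. Camkv, a kinase-like protein that binds calmodulin, was found in 16 of 47 and 13 of 16 cells and differed by -3.06.

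Tppp3, which promotes tubulin assembly, had a median of 41.6 CPM in GABAergic and 550.4 CPM in glutamatergic cells and differed by -3.90. Rnd3, a small GTPase, was found in 8 of 47 and 11 of 16 cells and differed by -3.82. Arhgdig and Arhgap36, regulators of small GTPases, differed by -3.14 and -2.99, and Baiap2, which couples such GTPases to actin, by -3.01. Arhgdig shares exon bases with Rgs11. Ctxn1, a small neuronal membrane protein, differed by -3.95, Isyna1, which makes inositol phosphate, by -3.26, and Srp14, of the signal recognition particle, by -3.24. The remaining 3 named lower genes were Fezf1, Arc and Bdnf, which are described with their groups. All 30 named genes kept the sign of their difference when it was averaged over the letters of the cells' titles, whose meaning the labels do not give, and when it was averaged over the temperature classes. The 13 silent insensitive GABAergic cells had no glutamatergic cell of their temperature class and did not enter the latter average. Single temperature classes could run the other way. Among cold-sensitive cells Rasgrf1 was at 10.2 and 13.1 CPM in the 2 GABAergic cells and at 398 CPM in the 1 glutamatergic cell. Without glutamatergic cells with Nr5a1, 15 of 15 named higher and 12 of 15 named lower genes stayed past 2. The exceptions were Rnd3 at -1.98, Calb1 at -1.97 and Arhgap36 at -1.60. The median gene was then at 0.32, against -0.51 with all cells, so the whole scale had moved towards higher values.

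**Figure D3:**
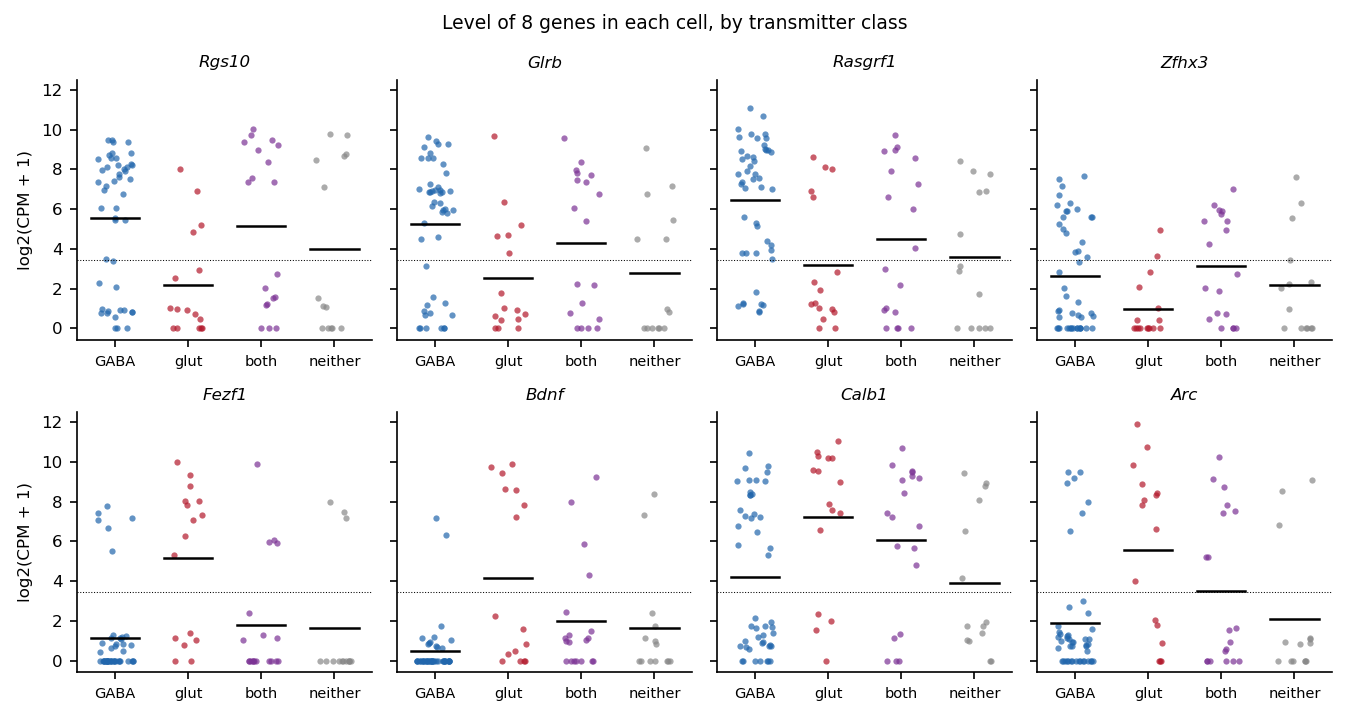
Each point is the log2(CPM + 1) of 1 gene in 1 cell, with cells grouped by transmitter class, black bars at the class mean and a dotted line at 10 CPM. Rgs10, Glrb, Rasgrf1 and Zfhx3 had higher means in GABAergic cells and Fezf1, Bdnf, Calb1 and Arc in glutamatergic cells. Most panels show cells near 0 beside cells far above 10 CPM in the same class.

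Of 24 factors of glutamatergic lineages, 3 were eligible, all through glutamatergic cells only, and all 3 were past -2. Such genes had to be more widely found in glutamatergic cells. Among all 4495 eligible genes 3.52% were past -2. Fezf1, a zinc finger factor (chromosome 6, 23245044 to 23248362), ranged from 0 to 220.3 CPM with a median of 0 in GABAergic cells and from 0 to 1014 CPM with a median of 104 in glutamatergic cells. It was at 10 CPM or more in 6 of 47 GABAergic and 10 of 16 glutamatergic cells and differed by -3.99. Nr5a1, the nuclear receptor SF-1 (chromosome 2, 38692656 to 38714542), was found in 1 of 47 GABAergic cells, with a highest value of 41.4 CPM, and in 6 of 16 glutamatergic cells, with a highest value of 319 CPM. Tcf7l2, a factor of Wnt signalling, was found in 6 of 47 and 9 of 16 cells and differed by -2.47, or by -1.57 without glutamatergic cells with Nr5a1. At least 1 of the 24 factors was found in 14 of 47 GABAergic cells (29.8%, 17.3 to 44.9%) and 14 of 16 glutamatergic cells (87.5%, 61.7 to 98.4%). Fezf1 and Nr5a1 are known as factors of the ventromedial hypothalamic nucleus, whereas the labels give all these cells as preoptic. Fezf1 or Nr5a1 was found in 7 of 47 GABAergic cells (14.9%, interval 6.20 to 28.3%) and 12 of 16 glutamatergic cells (75%, 47.6 to 92.7%), and in 7 of 19 cells with both markers and 3 of 14 with neither. Both genes met in 4 glutamatergic cells and in 0 GABAergic cells.

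Of 21 factors of GABAergic forebrain lineages, only Isl1 was eligible, through glutamatergic cells, and it ran the other way, in 6 of 47 GABAergic and 5 of 16 glutamatergic cells with a difference of -1.50, or -0.69 without glutamatergic cells with Nr5a1. The rest were each found in few cells. Dlx1 and Dlx2 were each found in 5 of 47 GABAergic cells and Dlx5, Meis2 and Esrrg each in 4, against 1 glutamatergic cell for Dlx1 and 0 for the other four. Six3 was found in 11 of 47 and 2 of 16 cells. A Dlx gene of any kind was found in 10 of 47 GABAergic cells (21.3%, 10.7 to 35.7%) and 1 of 16 glutamatergic cells (6.25%, 0.158 to 30.2%), with 2 of 19 in cells with both markers and 1 of 14 in cells with neither. At least 1 of the 21 factors was found in 31 of 47 GABAergic cells (66.0%, 50.7 to 79.1%) and 9 of 16 glutamatergic cells (56.3%, 29.9 to 80.2%), or in 35 and 11 after thinning to 100000 counts. At least 2 of the 21 met in 16 of 47 GABAergic cells and 1 of 16 glutamatergic cells, and at least 3 in 7 and 0. After the same thinning a Dlx gene was found in 12 GABAergic cells and 1 glutamatergic cell. At 100000 counts 10 CPM is 1 count, so thinning also lowered the number of counts needed. Among factors of preoptic and hypothalamic identity, Zfhx3, a homeobox factor of the clock neurons of the suprachiasmatic nucleus, was found in 19 of 47 GABAergic cells (40.4%, 26.4 to 55.7%) and 2 of 16 glutamatergic cells (12.5%, 1.55 to 38.3%). Zfhx3 differed by 1.68, short of 2, and by 1.01 without cells with 3 or more microglia markers. That list had 6 eligible members, with a median difference of -0.07.

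**Figure D4:**
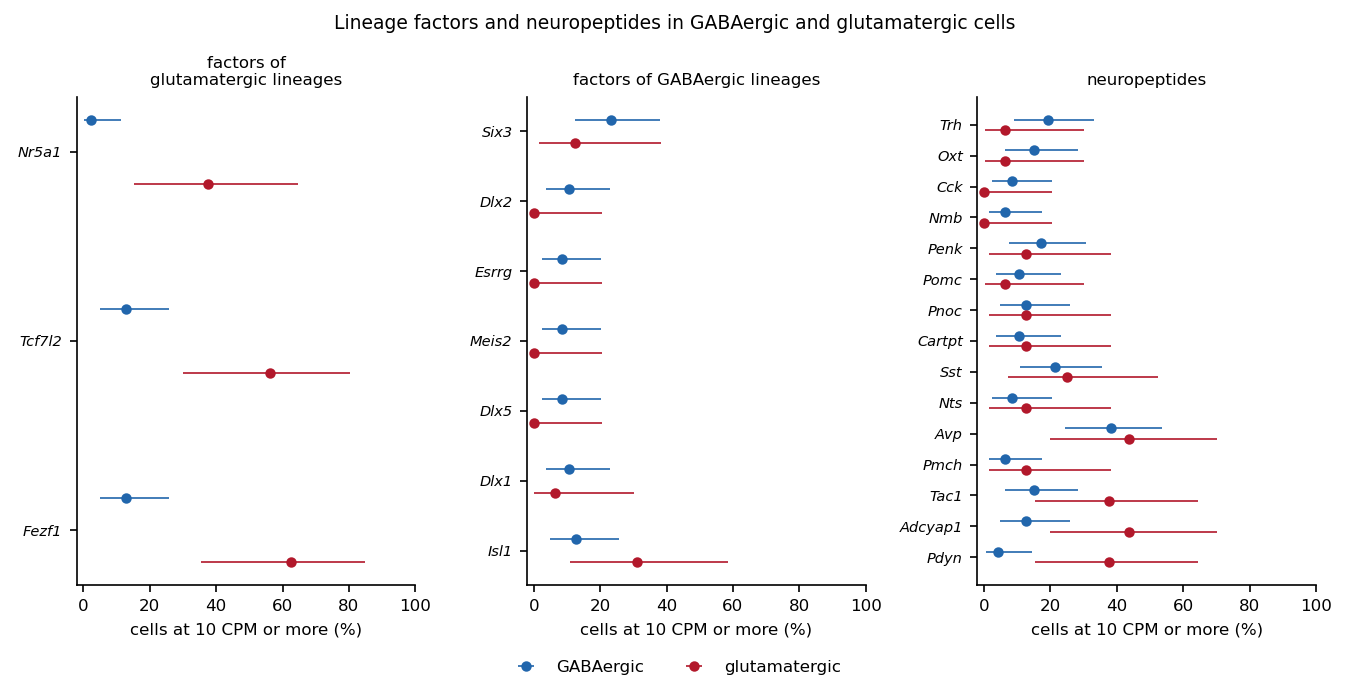
Points give the share of cells at 10 CPM or more for each gene, GABAergic cells above glutamatergic cells, and lines are exact 95% intervals, which cover counting error only. Genes found in at least 3 cells of either class are drawn. The 3 factors of glutamatergic lineages lie further right in glutamatergic cells, at 37.5 to 62.5%, and most other pairs of intervals overlap widely.

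Neuropeptides marked subsets in both classes. At least 1 of 32 peptide genes was at 10 CPM or more in 40 of 47 GABAergic and 15 of 16 glutamatergic cells, with a median of 2 peptides per cell in each. Of 5 eligible peptide genes all 5 were lower in GABAergic cells and 3 were past -2. Their median difference was -2.30, but 4 of the 5 were eligible through glutamatergic cells only. Among all 4495 eligible genes 3166 were lower, 3.52% were past -2 and the median was -0.51. Adcyap1, which encodes PACAP, ranged from 0 to 245 CPM in GABAergic and from 0 to 1038 CPM in glutamatergic cells, was found in 6 of 47 and 7 of 16 cells, and differed by -2.79. Pdyn, the precursor of dynorphins, was found in 2 of 47 and 6 of 16 cells, and Tac1, the precursor of substance P, in 7 of 47 and 6 of 16. Pdyn differed by -2.47 and Tac1 by -2.30. The single highest Tac1 value, 14603 CPM, was in the glutamatergic silent sensitive cell 8, and without that cell the median of the list was -1.64. Avp, vasopressin, was found in 18 of 47 and 7 of 16 cells and Sst, somatostatin, in 10 and 4, and differed by -0.38 and -0.23, or by 0.04 and 0.02 without glutamatergic cells with Nr5a1. Some peptides were found in a larger share of GABAergic cells. Trh, thyrotropin-releasing hormone, was found in 9 of 47 and 1 of 16 cells and Penk, an opioid precursor, in 8 and 2. Oxt, oxytocin, was found in 7 and 1, Cck, cholecystokinin, in 4 and 0, Pomc in 5 and 1 and Nmb in 3 and 0. Pnoc, in 6 and 2, had about the same share in both. Cartpt, in 5 and 2, Nts, in 4 and 2, and Pmch, in 3 and 2, had larger shares in glutamatergic cells. The intervals of these shares overlapped between the classes.

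Bdnf is a neurotrophin that, with PACAP, is known as a marker of warm-activated preoptic neurons in mice. Bdnf (chromosome 2, 109674700 to 109727007) ranged from 0 to 144 CPM with a median of 0 in GABAergic cells and from 0 to 953 CPM with a median of 2.84 in glutamatergic cells. Bdnf was found in 2 of 47 GABAergic cells (4.26%, 0.520 to 14.5%) and 7 of 16 glutamatergic cells (43.8%, 19.8 to 70.1%) and differed by -3.68. Summed over cells Bdnf was 2.10 CPM (1.77 to 2.47) in GABAergic and 205 CPM (199.95 to 211) in glutamatergic cells. Bdnf shares exon bases with Gm45346, from whose reads its own cannot be told apart here. In glutamatergic cells Bdnf and Adcyap1 met in 5 cells, out of 7 with each. In GABAergic cells they met in 0, out of 2 with Bdnf and 6 with Adcyap1. Among glutamatergic cells, 5 of the 7 with Bdnf also had Fezf1 and 4 had Nr5a1, and 5 of the 6 with Pdyn and 5 of the 6 with Tac1 had Fezf1. Nr5a1 and Tcf7l2 met in 5 cells, out of 6 with Nr5a1 and 9 with Tcf7l2. The cells of the class were thus not uniform, and both Fezf1 and Bdnf were absent at 10 CPM from 4 of 16.

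Across temperature classes, GABAergic cells made up 11 of 21 warm-sensitive (52.4%, 29.8 to 74.3%), 2 of 5 cold-sensitive, 10 of 24 insensitive (41.7%, 22.1 to 63.4%), 5 of 10 silent sensitive, 13 of 18 silent insensitive (72.2%, 46.5 to 90.3%) and 6 of 18 unknown cells. Glutamatergic cells made up 5 of 21 warm-sensitive (23.8%, 8.22 to 47.2%), 1 of 5 cold-sensitive, 5 of 24 insensitive (20.8%, 7.13 to 42.2%), 1 of 10 silent sensitive, 0 of 18 silent insensitive and 4 of 18 unknown cells. The 0 of 18 allows a share of up to 18.5%. Of cells with a temperature class, 18 of 41 GABAergic cells (43.9%, 28.5 to 60.3%) and 1 of 12 glutamatergic cells (8.33%, 0.211 to 38.5%) were silent. The classes lay closer in temperature response: 18 of 41 GABAergic cells (43.9%) and 7 of 12 glutamatergic cells (58.3%, 27.7 to 84.8%) were sensitive, with widely overlapping intervals.

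Within the temperature classes the leading genes were spread unevenly. Rasgrf1 was at 10 CPM or more in 9 of 11 warm-sensitive, 9 of 10 insensitive and 11 of 13 silent insensitive GABAergic cells, against 1 of 5 warm-sensitive and 2 of 5 insensitive glutamatergic cells. Ppp3ca was found in 1 of 11 warm-sensitive GABAergic cells and 6 of 10 insensitive ones, against 4 of 5 and 5 of 5 glutamatergic cells. Bdnf was found in 0 of 5 warm-sensitive and 4 of 5 insensitive glutamatergic cells, and Nr5a1 in 0 of 5 and 3 of 5. Fezf1 was found in 2 of 5 warm-sensitive and 5 of 5 insensitive glutamatergic cells. Within temperature classes, averaged over those with cells of both kinds and thus without silent insensitive cells, Rasgrf1 differed by 3.35 and Ppp3ca by -4.32. Bdnf differed by -4.03 and Fezf1 by -3.83 between GABAergic and glutamatergic cells in the same average.

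Genes that neurons switch on within minutes of activity, the immediate early genes, were mostly lower in GABAergic cells. Of 18 such genes 14 were eligible, 13 of them lower, 4 past -2 and 1 higher, and the median difference was -1.34. Over all eligible genes 3166 of 4495 were lower, 3.52% were past -2 and the median was -0.51. Of the 14 immediate early genes, 3 were eligible through glutamatergic cells only. The median of the list was -1.20 without glutamatergic cells with Nr5a1 and -0.72 from summed counts. Arc, which acts at synapses, ranged from 0 to 717 CPM with a median of 0.895 in GABAergic cells and from 0 to 3839 CPM with a median of 162 in glutamatergic cells. It was found in 7 of 47 and 10 of 16 cells and differed by -3.69. Fos ranged from 0.863 to 5085 CPM with a median of 838 in GABAergic and from 187 to 5809 CPM with a median of 1561 in glutamatergic cells. The gene reached 10 CPM in 40 of 47 and 16 of 16 cells and differed by -2.10. Egr4, a zinc finger factor, was found in 21 of 47 and 11 of 16 cells and differed by -2.60, and Btg2, an antiproliferative factor, was found in 22 of 47 and 11 of 16 and differed by -2.19. Dusp1, a phosphatase of MAP kinases, was the exception, at 0.53, but at -0.59 without cells with 3 or more microglia markers. Leaving out glutamatergic cells with Nr5a1 gave -3.70 for Arc, -2.67 for Egr4, -2.28 for Btg2 and -2.20 for Fos. Fos differed by -1.99 without cells with 3 or more microglia markers and Btg2 by -1.72 within temperature classes. Cells of both classes had been recorded in slices before they were picked.

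The promoters of the 3 further immediate early genes past -2 are shown with a known element marked, TGACG, the core of the site for the activity-regulated factor CREB. Whether the element bears on the differences was not tested. Each sequence is the 250 bases before the annotated start, 5′ to 3′ on the gene's strand, from RefSeq on GRCm38.p6, with TGACG or its reverse complement CGTCA in capitals. Arc is named only.
Egr4, chr6:85513590-85513839, minus strand: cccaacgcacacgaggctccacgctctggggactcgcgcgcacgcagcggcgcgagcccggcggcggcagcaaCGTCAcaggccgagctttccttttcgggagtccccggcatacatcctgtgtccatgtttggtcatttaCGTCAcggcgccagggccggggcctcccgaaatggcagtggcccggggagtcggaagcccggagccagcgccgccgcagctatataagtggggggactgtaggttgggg
Btg2, chr1:134079156-134079405, minus strand: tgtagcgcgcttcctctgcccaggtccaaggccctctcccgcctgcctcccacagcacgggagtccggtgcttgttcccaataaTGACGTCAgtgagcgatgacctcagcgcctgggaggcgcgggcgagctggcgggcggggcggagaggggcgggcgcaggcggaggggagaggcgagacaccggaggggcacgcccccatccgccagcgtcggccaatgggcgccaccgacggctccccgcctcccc
Fos, chr12:85473640-85473889, plus strand: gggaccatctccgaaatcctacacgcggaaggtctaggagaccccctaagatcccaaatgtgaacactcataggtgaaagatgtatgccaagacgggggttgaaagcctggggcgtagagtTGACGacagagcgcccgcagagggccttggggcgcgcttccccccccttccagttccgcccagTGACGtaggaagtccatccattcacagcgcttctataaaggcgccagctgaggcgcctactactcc
Each window held 2 matches, and in Btg2 the pair overlaps as a palindrome. Of 14 immediate early genes with a promoter in the table, whatever their difference, 11 held TGACG or CGTCA in this window, or 78.6%, against 19.8% of 27025 genes in the table. These are not the same 14 genes that were eligible, since Arc was eligible and has no promoter there. A match is a description of letters and says nothing of binding in these cells.

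Of calcium-binding and calmodulin kinase genes, 18 of 19 eligible members were lower in GABAergic cells, 2 of them past -2, with a median difference of -1.15. Of the 19, 4 were eligible through glutamatergic cells only. Over all genes 3166 of 4495 eligible ones were lower and 3.52% were past -2. Calm2, which encodes calmodulin, had a median of 660.4 CPM in GABAergic and 1495 CPM in glutamatergic cells and differed by -1.46. Hpcal4, a neuronal calcium sensor, was found in 10 of 47 and 8 of 16 cells and differed by -2.25, but by -0.19 without glutamatergic cells with Nr5a1. Camk2d, a calmodulin kinase subunit, differed by -1.86 and Pcp4, which binds calmodulin, by -1.64, and both were short of 2. Camk2d was at -0.96 without cells with 3 or more microglia markers and Pcp4 at -0.84 without glutamatergic cells with Nr5a1. Hpcal1 was the member above 0, at 0.46, or 0.08 without cells with 3 or more microglia markers. Without glutamatergic cells with Nr5a1 the median of the list was -0.27, while that of all eligible genes was 0.32.

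**Figure D5:**
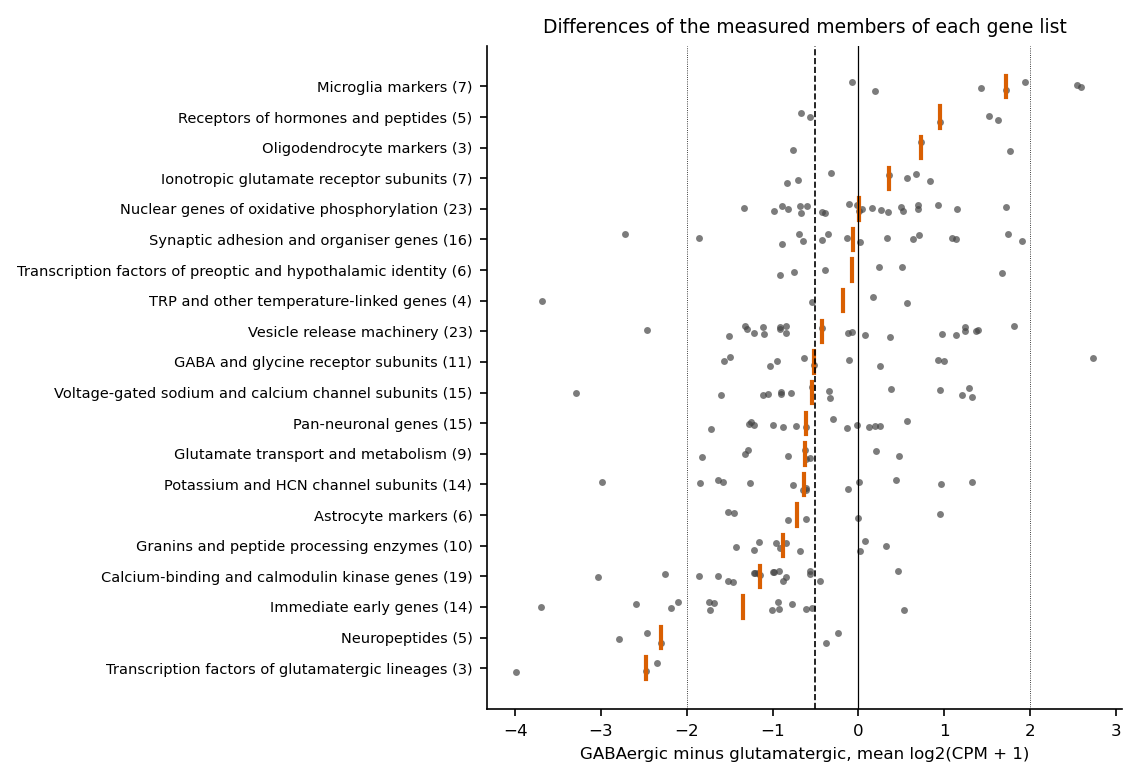
Points are the eligible members of each gene list, placed on the horizontal axis by the GABAergic minus glutamatergic difference of the mean log2(CPM + 1). Orange bars are list medians, the dashed line is the median of all eligible genes at -0.51, dotted lines mark 2 and -2, and the number of eligible members stands in brackets. Factors of glutamatergic lineages, neuropeptides, immediate early genes and calcium-binding genes lie furthest left and microglia markers furthest right.

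Receptors and channels were mixed. GABA and glycine receptor subunits had 11 eligible members of 22, with 4 higher and 7 lower and a median of -0.52, close to the median gene. Glrb was the only one past 2. Gabrb2 was at 0.93 and Gabra5, the lowest, at -1.56, or -0.38 without glutamatergic cells with Nr5a1. Ionotropic glutamate receptor subunits had 7 eligible members between -0.83 and 0.83, with a median of 0.36. Receptors of hormones and peptides had 5 eligible members of 40 and a median of 0.96. Of the 5, 3 were eligible through GABAergic cells only and 2 through glutamatergic cells only, so the filter bore on each direction. The median was 0.07 at a class threshold of 50 CPM, 0.19 at 5 counts and 0.09 with cells of both markers added. Adcyap1r1, the receptor of PACAP, was found in 16 of 47 GABAergic and 2 of 16 glutamatergic cells with a difference of 1.63, opposite to its ligand. Oprl1, the nociceptin receptor, was found in 17 and 3 with 1.52. Both receptors passed through GABAergic cells only, and the ligand Adcyap1 through glutamatergic cells only. Sodium and calcium channel subunits had 15 eligible members with a median of -0.54, and Cacna2d1 alone was past -2. Potassium and HCN channel subunits had 14 eligible members with a median of -0.63. Kcnip1, which binds Kv4 channels, was found in 10 of 47 and 8 of 16 cells and differed by -2.99, the only member past -2. Kcnc2, a channel subunit of fast-spiking neurons, was found in 12 of 47 and 1 of 16 cells and differed by 1.32, or by 0.38 without cells with 3 or more microglia markers.

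Synaptic genes were split by member. Of 23 eligible genes of vesicle release, 9 were higher and 14 lower, with a median of -0.42. Stx1a, a syntaxin of the fusion machinery, was found in 4 of 47 and 8 of 16 cells and differed by -2.46, or by -0.96 without glutamatergic cells with Nr5a1. Syp, synaptophysin of the vesicle membrane, had a median of 122 CPM in GABAergic and 21.6 CPM in glutamatergic cells and differed by 1.82. Among 16 eligible adhesion and organiser genes the median was -0.06. Nrxn3, a neurexin, was found in 30 of 47 and 6 of 16 cells and differed by 1.91, and Nxph1, a neurexin ligand known from inhibitory neurons, was found in 14 of 47 and 1 of 16 cells and differed by 1.74. Granins and peptide processing enzymes had 10 eligible members with a median of -0.88. Among temperature-linked genes 4 of 23 were eligible, with a median of -0.18, and Bdnf alone was past -2.

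Genes shared by all neurons gave a scale for these values. The 15 pan-neuronal genes had a median of -0.61, with 11 lower and none past 2 in size. The 23 nuclear genes of oxidative phosphorylation had a median of 0.01, with 12 higher and 11 lower. Astrocyte markers had 6 eligible members with a median of -0.71 and a summed level with a median of 735 CPM in GABAergic and 1319 CPM in glutamatergic cells. Oligodendrocyte markers had 3 eligible members with a median of 0.72, or -0.43 without cells with 3 or more microglia markers, and a summed level with a median of 179.9 CPM in GABAergic and 101 CPM in glutamatergic cells. Of oligodendrocyte precursor markers 1 was eligible, at -0.68. Of endothelial, mural and ependymal markers none was eligible. Of the list of other transmitter systems only Ddc, which makes dopamine and serotonin from their precursors, was eligible, in 12 of 47 and 5 of 16 cells. Th, which starts dopamine synthesis, was found in 3 of 47 and 0 of 16.

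The 6 glutamatergic cells with Nr5a1 differed in quality from the rest. Rn45s took a median of 40.7% of counts in them, against 57.2% in the other 10 glutamatergic cells and 56.8% in GABAergic cells. They had a median of 5219 genes with a count, against 3197.5 in the other 10 and 3576 in GABAergic cells, and after thinning to 100000 counts 3655, against 1845 in the other 10 and 2332 in GABAergic cells. They had a median of 13.5 of the 15 pan-neuronal genes, against 9 in the other 10. Library quality and the Nr5a1 subset cannot be told apart here. Differences that were about as large without these cells, such as those of Fezf1 at -4.25, Arc at -3.70, Rasgrf1 at 4.23 and Glrb at 2.91, were also found with the other 10 cells alone. The median gene went from -0.51 to 0.32 without these cells, so differences above 0, such as those of Rasgrf1 and Glrb, include that shift.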

How the data were processed

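RNA of 96 single neurons was amplified with Smart-seq2 and made into libraries with Nextera XT, per the labels' protocols. The authors deposited raw read counts as whole numbers for 24054 genes in each cell. They also deposited a normalized signal table, whose values are the counts divided by the cell's total and by a constant of 0.177 to 2.49. The submitters' processing notes name FastQC, STAR, edgeR and mm10 with no versions. The annotation, the counting step and the use of strand were not stated.

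CPM were computed from the counts over each cell's full total, Rn45s included, with a pseudocount of 1 CPM on the log2 scale. Total counts ran from 465167 to 3.66e+06 per cell, so 10 CPM corresponds to about 5 counts in the shallowest cell. Cells were picked singly, so no doublet caller was run. No 2 cells held identical values. Shares have exact Clopper-Pearson and sums exact Poisson 95% intervals. Named genes were the 15 eligible genes per direction with the largest difference, a share difference of the same sign, and at least 2/3 of the difference kept when any 1 cell was left out. Predicted, ribosomal protein, pseudogene and mitochondrially encoded genes, clones, genes not reported here and the 3 genes of the rule were passed over. Members of 26 gene lists were also named, by the size of their difference. The classes and lists were chosen with earlier results of these data known. Mitochondrially encoded genes were not analysed here, and some members of the lists are counted in them but not reported singly.

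Alternatives were other class thresholds, a stricter GABAergic class, cells with both markers added, cells with a temperature class only, TMM sizes (edgeR), DESeq2 size factors, totals without Rn45s, the deposited signal values, pseudocounts of 0.1 and 10 CPM, summed counts, thinning, differences relative to the median gene, within title letters and within temperature classes, no limit or a stricter limit on low genes, each cell left out in turn, and cells over 75% Rn45s left out. Leaving out cells with 3 or more microglia markers, leaving out glutamatergic cells with Nr5a1, and thinning outside Rn45s were added after seeing the data. The comparison was also run on simulated counts with planted differences, drawn independently for each cell. The simulation held no shared animals, no class difference in library quality beyond library size and no cells with added microglia RNA. It therefore cannot speak to these. Gene coordinates are from GENCODE M21 on mm10, and promoters from RefSeq on GRCm38.p6. Tables were made in Python 3.11.15 with pandas 2.3.3 and numpy 2.4.6, intervals with scipy 1.17.1 and plots with matplotlib 3.10.9. TMM sizes came from edgeR 4.0.16 and size factors from DESeq2 1.42.0, both under R 4.3.3.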

Additional observations from a re-analysis of the deposited data

How the results depend on the processing

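Each class is 1 sample of cells with no named animal, so the values carry no error between animals, and single genes at a few counts in the shallower cells were often not detectable at this depth. No paired analysis was possible because no test was made and the labels carry no numbers that pair GABAergic with glutamatergic cells. The count of genes higher in GABAergic cells past 2, 23 as reported, was 51 with a class threshold of 5 CPM, 50 with 5 counts, 71 with the stricter GABAergic class, 11 with cells of both markers added, 71 with totals without Rn45s, 14 with DESeq2 size factors, 113 and 2 with pseudocounts of 0.1 and 10 CPM, 110 with summed counts, 91 relative to the median gene, 38 within title letters, 40 within temperature classes, 14 with eligibility at 50% of cells and 47 without cells over 75% Rn45s. Among settings chosen after seeing the data it was 49 without cells with 3 or more microglia markers, 89 after thinning outside Rn45s and 198 without glutamatergic cells with Nr5a1. Leaving out each cell gave 21 to 38. The number of eligible genes also changed with the setting, so counts of higher and lower genes have unlike bases. It was 4495 as reported, 2395 with DESeq2 size factors and 1450 with eligibility at 50% of cells. It was 5514 after thinning outside Rn45s and 3529 without glutamatergic cells with Nr5a1. The count of lower genes, 158 as reported, was 365 with a class threshold of 50 CPM, 67 with cells of both markers added, 102 with TMM sizes, 31 with DESeq2 size factors, 554 and 15 with pseudocounts of 0.1 and 10 CPM, 291 with summed counts, 50 relative to the median gene, 507 without cells with 3 or more microglia markers and 86 without glutamatergic cells with Nr5a1. Leaving out each cell gave 123 to 230 lower genes and a median gene of -0.62 to -0.36. The median gene was at 0.0087 with no limit on low genes and 0.32 without glutamatergic cells with Nr5a1. The share of higher genes among those past 2 was 12.7% as reported, 25% with TMM sizes, 31.1% with DESeq2 size factors, 27.2% without Rn45s and 64.5% relative to the median gene.

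List medians turned sign in 9 of 350 values for lists whose reported median was at least 0.5 in size, and in 53 of 150 for lists with a smaller one, which were genes of synaptic adhesion, vesicle release, oxidative phosphorylation, temperature-linked genes, ionotropic glutamate receptors and factors of preoptic and hypothalamic identity. The 9 were these. GABA and glycine receptor subunits were at 0.44 with a class threshold of 5 counts, 0.030 within temperature classes and 0.13 without cells with 3 or more microglia markers. Sodium and calcium channels were at 0.19, and potassium and HCN channels at 0.11, with 5 counts. Without glutamatergic cells with Nr5a1, potassium and HCN channels were at 0.30 and pan-neuronal genes at 0.27. Without cells with 3 or more microglia markers, oligodendrocyte markers were at -0.43 and microglia markers at -0.34. The microglia markers had themselves chosen the cells left out. Beside these 9, list medians moved by over 0.5 in 55 cases and by less in 436, whatever their sign. For the 30 named genes, 681 values kept the sign and stayed past 2, 69 kept the sign only and 0 turned sign. Part of this was fixed in advance. The genes were picked for large differences, and by the rule that named them no left-out cell could turn their sign. Settings that change only the limit on low genes leave their differences as they were. The glutamatergic share of cold-sensitive cells was 0% with thresholds of 5 CPM and 5 counts, and that of silent sensitive cells 0% with 5 counts. The cause of these shifts was not tested.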

Other observations

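In the 19 cells with both kinds of transmitter marker, Gad2 was found more often than Gad1. Both Gad genes were at 10 CPM or more in 8 of them, Gad1 alone in 3 and Gad2 alone in 8, whereas among GABAergic cells Gad2 alone was found in 5 of 47. Slc32a1 was at 10 CPM or more in 2 of 19. At least 2 peptide genes were found in 18 of 19 cells with both markers, against 29 of 47 GABAergic and 12 of 16 glutamatergic cells, and their median was 3 peptides, against 2 in each class. Bdnf or Adcyap1 was found in 9 of 19, against 8 of 47 GABAergic and 9 of 16 glutamatergic cells. These cells also had the most genes after thinning to 100000 counts, a median of 3072, and the summed oligodendrocyte markers had a median of 639 CPM in them, against 179.9 CPM in GABAergic and 101 CPM in glutamatergic cells. After the same thinning, where 10 CPM is 1 count, at least 2 peptide genes were found in 18 of 19 cells with both markers. GABAergic cells then had 33 of 47 and glutamatergic cells 13 of 16, and the median numbers of peptides were 4, 3 and 3. Bdnf or Adcyap1 was then found in 13 of 19, against 10 of 47 and 9 of 16. The part of depth and of other cells' RNA in these values was not tested further.

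The 14 cells with neither marker had a median of 9 of 15 pan-neuronal genes and of 853 CPM of summed microglia markers. At least 1 factor of glutamatergic lineages was found in 9 of 14 and at least 1 factor of GABAergic lineages in 5 of 14. Of the cells with neither marker and a temperature class, 6 of 11 were silent, against 3 of 14 with both markers.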
